A study of Mus musculus with 14 samples.

Results

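The 10 genes described here encode enzymes that turn cholesterol into bile acids and join those acids to amino acids in the liver: Cyp7a1, Hsd3b7, Cyp8b1, Akr1d1, Cyp27a1, Cyp7b1, Amacr, Acox2, Slc27a5 and Baat. They were taken as named by the array platform's annotation, are 10 of the 12085 genes tested, and were all measured. Each gene was read by the brightest of its probe sets, the sets of short oligonucleotides that report 1 transcript. The 10 genes had 16 probe sets, of which 14 passed the filter on low values described with the methods. The 4 genes with a further kept probe set were Cyp7a1, Cyp7b1, Akr1d1 and Baat. Acox2, Amacr, Cyp8b1, Hsd3b7, Slc27a5 and Cyp27a1 rested on 1 kept probe set each.

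The arrays measured mouse liver RNA from wild-type (WT) mice and from mice labelled lsPERK, which the series' design calls its knock-out. PERK, encoded by Eif2ak3, is a kinase of the endoplasmic reticulum (ER) that phosphorylates eIF2 when unfolded proteins accumulate. Tunicamycin, which blocks N-linked glycosylation and so causes ER stress, was given at 1 mg/kg and the treated livers were taken at 6 h, while controls received 0.3% DMSO with no time stated. Each genotype had 3 control and 4 tunicamycin arrays. The labels give no age, sex, deleted region, or promoter or Cre line that would say in which cells PERK was lost, and they do not call the replicates separate animals, so p-values measure the spread between these samples.

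Bile acids are made in hepatocytes along 2 routes. The classic route starts in the ER with Cyp7a1, whose product passes to Hsd3b7, then to Cyp8b1 on the branch to cholic acid, and then to Akr1d1. The acidic route starts in mitochondria with Cyp27a1 and continues with Cyp7b1. Both routes end in peroxisomes, where Amacr, Acox2 and partner enzymes shorten the side chain and Baat attaches taurine or glycine, while Slc27a5 activates bile acids that return from the gut so that Baat can conjugate them again. Bile acids restrain their own synthesis through the receptor FXR (Nr1h4) and the repressor SHP (Nr0b2).

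All values of genes are log2 intensities after quantile normalization, and differences are between group means on that scale, with standard errors (SE) from a limma fit to all 14 arrays. A gene is called where its Benjamini-Hochberg adjusted p-value, taken over the 12085 genes, is under 0.05. Array intensities of different genes are not comparable, so levels are compared only within a gene. The targeted Eif2ak3 averaged 8.40 in control and 10.89 in treated WT liver, and 7.12 in control and 8.14 in treated lsPERK liver. The treated genotypes differed by −2.75 on the log2 scale, lsPERK minus WT (limma adjusted p = 1.47e-07), while the difference of −1.27 between controls was not called (adjusted p = 0.309). The probe set may lie outside the deleted part, which the labels do not give, and then checks nothing about the deletion. Ddit3, the CHOP gene and a mark of ER stress, rose by 6.12 in WT and by 2.45 in lsPERK liver. Xist, the RNA of the inactive X chromosome, was high on 6 arrays (deposited intensity 7878 to 9297) and low on 8 (23.4 to 61.2), and the Y-linked Eif2s3y was the reverse. Xist-high arrays were 1 of 3 controls and 1 of 4 treated arrays in WT, and 2 of 3 controls and 2 of 4 treated arrays in lsPERK liver, so results that move with Xist are given with it.

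In WT liver 6 of the 10 enzymes fell after tunicamycin (Cyp7a1, Cyp8b1, Akr1d1, Amacr, Hsd3b7 and Slc27a5) and 1, Acox2, rose. Over all genes tested, 26% were called lower and 20.7% higher in this comparison. The median log2 difference of the 10 enzymes was −0.68, beside −0.13 over all genes. In lsPERK liver 3 of the 10 fell (Cyp7a1, Akr1d1 and Slc27a5) and Acox2 again rose, where 7.27% of all genes were called lower and 8.42% higher. The median over the enzymes was −0.08 there, beside −0.02 over all genes. Between the control groups 0 of the 10 enzymes were called, as were 0% of all genes in either direction. After tunicamycin Akr1d1, Amacr and Hsd3b7 were higher in lsPERK than in WT arrays and Cyp7a1 was lower, where 18.5% of all genes were called higher and 16.8% lower. The difference of responses, the lsPERK response minus the WT response, was called for the same 3 enzymes, all positive, where 10.2% of all genes were called positive and 9.67% negative. These counts share control or treated arrays between comparisons and are not independent of each other. The lsPERK count dropped from 4 to 2 with the intensities as deposited, with median centring, without lsPERK control replicate 3, on Xist-low arrays alone and on Xist-high arrays alone.

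**Figure D1:**
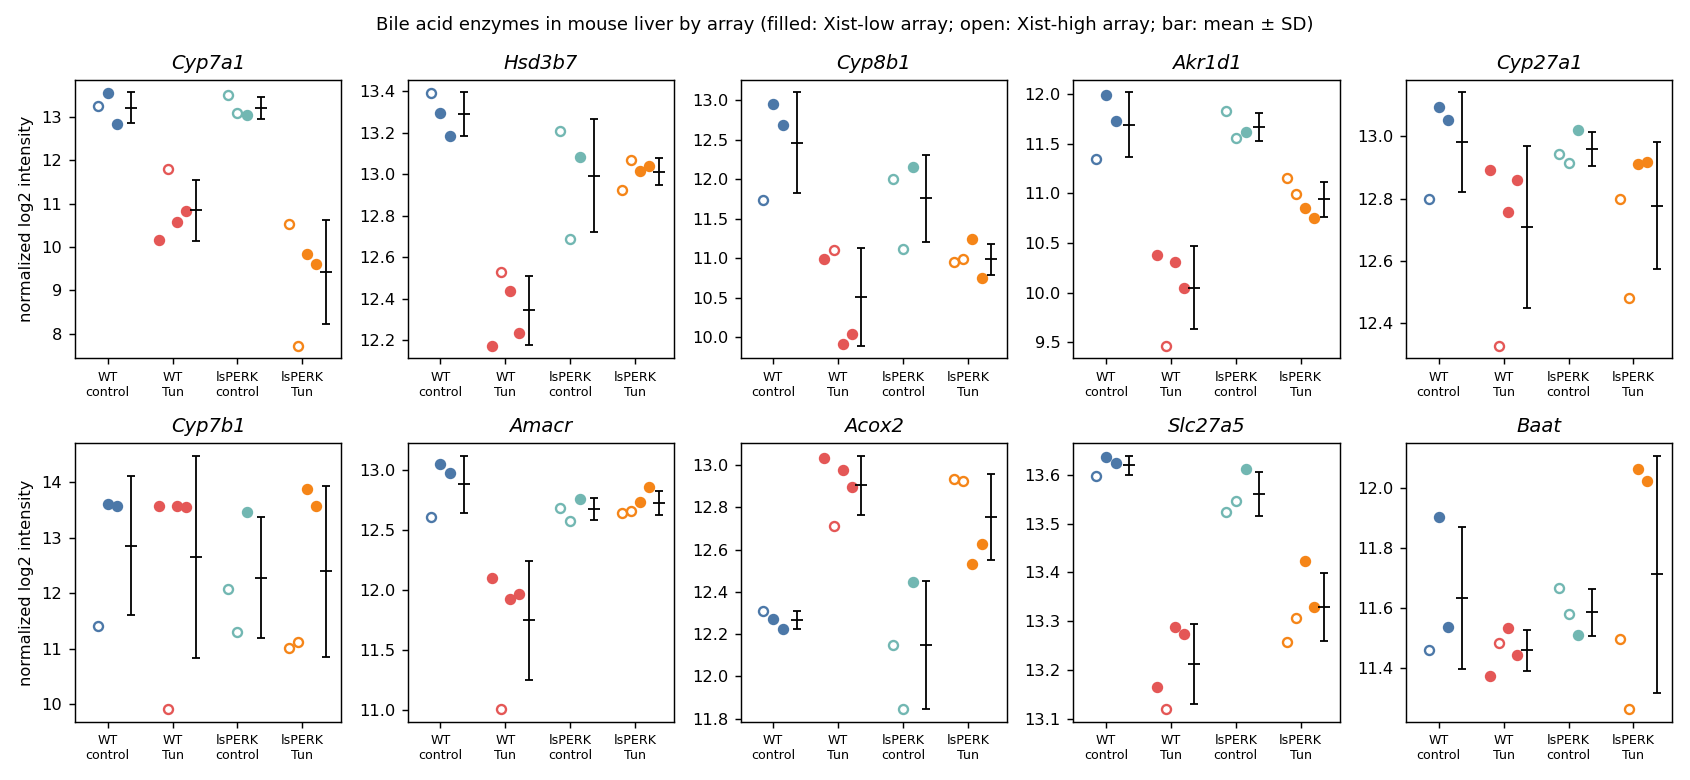
Normalized log2 intensity of each enzyme on every array, by group (Tun, tunicamycin), with group mean and SD beside the points. Filled points are Xist-low arrays and open points Xist-high arrays. Each panel has its own axis, which does not start at 0. Hsd3b7, Akr1d1 and Amacr sit lower in WT tunicamycin than in every other group.

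The promoters of 3 ring-modifying enzymes, Cyp8b1, Akr1d1 and Hsd3b7, are shown because these genes act close together in the pathway and all fell in WT liver. RefSeq promoter sequences (assembly GRCm38.p6) were matched by symbol for 5 of the 10 enzymes, and Cyp7a1 and Cyp7b1 were not among them. The lines below give 250 bases up to the start of the transcript, 5′ to 3′ on the gene's strand, with motif matches in capitals.
Cyp8b1: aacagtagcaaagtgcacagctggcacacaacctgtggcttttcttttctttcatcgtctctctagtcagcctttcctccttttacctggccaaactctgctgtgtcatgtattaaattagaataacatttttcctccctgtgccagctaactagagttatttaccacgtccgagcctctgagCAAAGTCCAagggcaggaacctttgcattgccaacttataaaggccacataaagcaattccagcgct
Akr1d1: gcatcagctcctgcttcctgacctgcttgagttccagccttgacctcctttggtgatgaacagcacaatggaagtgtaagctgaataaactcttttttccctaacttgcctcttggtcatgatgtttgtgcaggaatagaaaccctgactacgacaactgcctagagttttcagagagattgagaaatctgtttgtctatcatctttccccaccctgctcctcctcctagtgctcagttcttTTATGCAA
Hsd3b7: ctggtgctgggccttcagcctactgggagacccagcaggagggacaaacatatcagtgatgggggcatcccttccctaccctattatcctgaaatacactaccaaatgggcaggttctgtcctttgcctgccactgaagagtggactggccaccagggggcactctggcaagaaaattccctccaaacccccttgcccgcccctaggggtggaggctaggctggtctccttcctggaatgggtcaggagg

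The window of Cyp8b1 is chr9:121916306-121916555 on the minus strand, that of Akr1d1 is chr6:37529923-37530172 on the plus strand, and that of Hsd3b7 is chr7:127800359-127800608 on the plus strand. Both strands of the promoters were searched for the ER stress response element and its second form, named ERSE and ERSE-II, for TGACGTGG, the core of the unfolded protein response element, for TTGCATCA and TGATGNAA, forms of the amino acid and C/EBP-ATF response element, for CAAGGTCA (the LRH-1 core), CAAAGTCCA (an HNF4 core), TTGCNNAA (a C/EBP core), TTATGTAA (a D-box) and TGACGTCA (a CRE). TTGCATCA can overlap TGATGNAA read on the other strand. Cyp8b1 holds CAAAGTCCA 67 to 59 bases before its start. Of all 32851 promoters 0.384% hold it in the 250 bases before the start. The 50 bases after the start were not searched for any motif. Akr1d1 holds TTGCNNAA on the opposite strand, 8 to 1 bases before its start, where the printed strand reads TTATGCAA, and 9.56% of all promoters hold that motif. Hsd3b7 has no match to these letters in its window. The other motifs were found in 0.113% (ERSE), 0.0304% (ERSE-II), 0.563% (TGACGTGG), 0.791% (TTGCATCA), 3.45% (TGATGNAA), 1.33% (CAAGGTCA), 0.819% (TTATGTAA) and 1.55% (TGACGTCA) of all promoters, and in none of these 3. A match is a run of letters and not a measured binding site.

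Cyp7a1, the rate-limiting enzyme of the classic route, fell in both genotypes. Its controls read 13.25, 13.55 and 12.84 in WT and 13.50, 13.09 and 13.04 in lsPERK liver. After tunicamycin it read 10.16, 11.81, 10.57 and 10.84 in WT and 10.53, 7.72, 9.84 and 9.60 in lsPERK liver. No treated array of either genotype reached the lowest control of that genotype, and lsPERK tunicamycin replicate 2 was the lowest of all 14. The WT response was −2.37 (SE 0.52, limma adjusted p = 0.00179), a 5.16-fold fall. In lsPERK liver the response was −3.79 (SE 0.52, limma adjusted p = 0.000221), a 13.8-fold fall. The control groups had the same mean of 13.21, and their difference lay between −1.19 and 1.18 with 95% confidence.

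After tunicamycin Cyp7a1 stood lower in lsPERK than in WT liver, with a difference of −1.42 (SE 0.48, limma adjusted p = 0.0317), although the groups overlapped. This call rests on few arrays. It was lost without WT tunicamycin replicate 2 (−1.11, adjusted p = 0.0933), without WT tunicamycin replicate 4 (adjusted p = 0.0593), without lsPERK tunicamycin replicate 2 (−0.86, adjusted p = 0.0676) and without lsPERK tunicamycin replicate 4 (adjusted p = 0.0514), and it held in 21 of 31 alternatives. The further probe set of Cyp7a1 gave responses of −2.13 in WT and −3.03 in lsPERK liver, both called (limma adjusted p = 0.00133 and 0.0004), and a difference of −0.93 after tunicamycin, not called (adjusted p = 0.0994). The difference of responses was −1.42 (SE 0.73, 95% confidence limits −2.99 and 0.15, limma adjusted p = 0.202), so a larger fall in lsPERK liver was not shown. On the 8 Xist-low arrays the responses were −2.67 in WT and −3.32 in lsPERK liver, and both were called. On the 6 Xist-high arrays the WT response was −1.45 (SE 1.12, limma adjusted p = 0.389) and not called, the lsPERK response was −4.17 (adjusted p = 0.0277), and the difference after tunicamycin was −2.68 (adjusted p = 0.112).

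Hsd3b7, the dehydrogenase that acts on the product of Cyp7a1, fell in WT liver, and its responses differed between the genotypes. WT controls read 13.39, 13.30 and 13.18 and WT tunicamycin arrays 12.17, 12.53, 12.44 and 12.23. The lsPERK controls read 13.21, 12.69 and 13.08 and lsPERK tunicamycin arrays 12.92, 13.07, 13.02 and 13.04. All 4 WT tunicamycin arrays lay below all of the other 10. In WT liver the response was −0.95 (SE 0.12, limma adjusted p = 1.65e-05), a 1.93-fold fall, and the lsPERK response was 0.02 (SE 0.12, adjusted p = 0.940). The responses differed by 0.97 (SE 0.16, limma adjusted p = 0.00139), and in the tunicamycin groups Hsd3b7 was 1.59-fold higher in lsPERK than in WT liver (adjusted p = 0.000271). Hsd3b7 had no further kept probe set, so the alternatives that change the choice of probe set left its values as they were. The difference of responses was called in 29 of 30 alternatives. The exception was the 6 Xist-high arrays alone, where the value was 0.91 with an adjusted p of 0.126, beside 0.90 and 0.0102 on the Xist-low arrays. The Hsd3b7 difference after tunicamycin was also not called on Xist-high arrays alone (0.47, adjusted p = 0.180).

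Cyp8b1, the hydroxylase whose activity sets the share of cholic acid, fell in WT liver. WT controls read 11.74, 12.96 and 12.68 and WT tunicamycin arrays 10.99, 11.11, 9.92 and 10.04. In lsPERK liver the controls read 12.00, 11.12 and 12.15 and the tunicamycin arrays 10.95, 10.99, 11.24 and 10.75. The WT groups did not overlap, whereas lsPERK control replicate 2 lay among the treated lsPERK arrays. Tunicamycin minus control in WT liver was −1.95 (SE 0.34, limma adjusted p = 0.000371), a 3.85-fold fall. The lsPERK response was −0.77 (SE 0.34, limma adjusted p = 0.157) and not called. The difference of responses was 1.17 (SE 0.49, 95% confidence limits 0.13 and 2.22, limma adjusted p = 0.113), and it was called only without WT control replicate 1 (1.53, adjusted p = 0.0363). On Xist-high arrays alone, where each WT group is 1 array, the WT response was −0.63 (adjusted p = 0.268), beside −2.50 on Xist-low arrays (adjusted p = 0.000197).

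Akr1d1, the reductase that bends the sterol ring and so gives bile acids their shape, fell in both genotypes. Controls read 11.35, 11.99 and 11.73 in WT and 11.83, 11.56 and 11.61 in lsPERK liver. After tunicamycin it read 10.38, 9.47, 10.31 and 10.05 in WT and 11.16, 11.00, 10.85 and 10.75 in lsPERK liver. The treated arrays of the 2 genotypes formed separate ranges, WT below lsPERK, and both lay below their controls. The WT response was −1.64 (SE 0.20, limma adjusted p = 1.67e-05), a 3.12-fold fall, and the lsPERK response −0.73 (SE 0.20, adjusted p = 0.0251), a 1.66-fold fall. After tunicamycin Akr1d1 was 1.85-fold higher in lsPERK than in WT liver (log2 difference 0.89, SE 0.19, limma adjusted p = 0.00204), a call kept in 31 of 31 alternatives.

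The difference of responses of Akr1d1 was 0.91 (SE 0.29, limma adjusted p = 0.0376) and depended on the processing. It was not called with the intensities as deposited (0.42, adjusted p = 0.460), with median centring (0.83, adjusted p = 0.115) or with the further probe set (0.47, adjusted p = 0.383). It was also lost without WT control replicate 2 or 3, WT tunicamycin replicate 4, lsPERK control replicate 2 or 3, or lsPERK tunicamycin replicate 1 or 2, with values of 0.76 to 0.91 and adjusted p-values of 0.0568 to 0.0934. On Xist-low arrays alone it was 0.80 (adjusted p = 0.0510). The lsPERK response was called in 21 of 31 alternatives. It was not called with the intensities as deposited (−0.74, limma adjusted p = 0.102) or with median centring (−0.62, adjusted p = 0.111). The call was also lost without lsPERK control replicate 1, 2 or 3 or lsPERK tunicamycin replicate 3 or 4, with values from −0.78 to −0.65. On Xist-high arrays alone the lsPERK response was −0.62 and not called, and with the further probe set it was −0.60 (adjusted p = 0.110). The further probe set gave a WT response of −1.07 (limma adjusted p = 0.00193) and a difference of 0.73 after tunicamycin (adjusted p = 0.0191).

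Cyp27a1, the mitochondrial P450 that oxidises the sterol side chain in both routes, was not called in any of the 5 comparisons. Its 14 arrays lay between 12.33 (WT tunicamycin replicate 2) and 13.09 (WT control replicate 2), and the groups overlapped in every comparison. Its WT response was −0.27 (SE 0.14, 95% confidence limits −0.57 and 0.02, limma adjusted p = 0.118). With Xist as a covariate the WT response was −0.30 (SE 0.09, limma adjusted p = 0.0108), and on Xist-low arrays alone −0.24 (adjusted p = 0.0249), both called. Cyp27a1 read lower on Xist-high arrays, by 0.29 in that fit (adjusted p = 0.0112), with overlapping ranges.

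Cyp7b1, the oxysterol hydroxylase of the acidic route, separated by Xist status in every group. It is known as a gene of higher expression in male than in female mouse liver. WT arrays read 11.41, 13.60 and 13.56 in controls and 13.57, 9.91, 13.57 and 13.56 after tunicamycin. The lsPERK arrays read 12.07, 11.30 and 13.46 in controls and 11.01, 11.11, 13.87 and 13.58 after tunicamycin. The 6 low values, 9.91 to 12.07, were the 6 Xist-high arrays, and the 8 Xist-low arrays lay between 13.46 and 13.87. As intensities these ranges were 960.2 to 4291 and 11239 to 14993. In a fit with the 4 groups and Xist status, Cyp7b1 was lower by 2.61 on Xist-high arrays (SE 0.21, 6.09-fold, limma adjusted p = 2.61e-06). It ranked 29 by p-value among the 12085 genes for Xist status, where 4.58% of all genes were called lower and 6.34% higher on Xist-high arrays. Of the 10 enzymes, Cyp7b1, Amacr and Cyp27a1 were called lower and none higher.

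**Figure D2:**
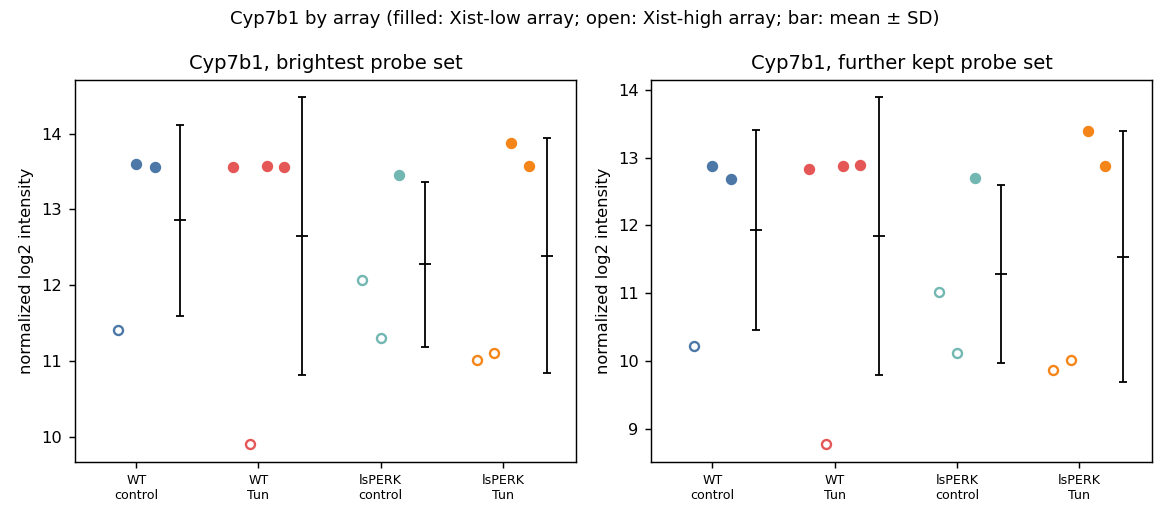
Normalized log2 intensity of both kept Cyp7b1 probe sets on every array, by group, with group mean and SD. Open points are Xist-high arrays and filled points Xist-low arrays. In both panels every open point lies below every filled point, in all 4 groups.

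Without regard to Xist the SD of Cyp7b1 was 1.09 to 1.83 within the groups, and 0 of the 5 comparisons were called. The WT response was −0.21 (SE 0.98), with 95% confidence limits of −2.32 and 1.90, so a change of several-fold in either direction would not have been seen. With Xist as a covariate the SE fell to 0.28. The WT response was then −0.43 (limma adjusted p = 0.223) and the lsPERK response −0.32 (adjusted p = 0.486). On the Xist-low arrays the WT response was −0.02 (SE 0.09, limma adjusted p = 0.889). On the Xist-high arrays it was −1.50 (SE 0.34, limma adjusted p = 0.0235), from 1 array in each WT group, and Cyp7b1 was higher there in lsPERK than in WT tunicamycin by 1.15 (adjusted p = 0.0448). Those values rest on WT tunicamycin replicate 2, the lowest array of all.

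Amacr, the peroxisomal racemase that turns the side chain into the form the oxidase accepts, fell in WT liver, and its responses differed between the genotypes. WT controls read 12.61, 13.06 and 12.98 and WT tunicamycin arrays 12.10, 11.01, 11.92 and 11.97. The lsPERK controls read 12.69, 12.58 and 12.77 and lsPERK tunicamycin arrays 12.65, 12.67, 12.74 and 12.86. The WT tunicamycin arrays lay below all of the other 10, with replicate 2, a Xist-high array, far below the rest of its group. Tunicamycin minus control in WT liver was −1.13 (SE 0.20, limma adjusted p = 0.000402), a 2.19-fold fall, and the lsPERK response 0.05 (adjusted p = 0.908). Amacr had no further kept probe set, so the alternatives that change the choice of probe set left its values as they were. The difference of responses was 1.19 (SE 0.29, limma adjusted p = 0.0106) and was called in 30 of 30 alternatives, from 0.88 to 1.63. On Xist-low arrays, which leave out replicate 2, it was 1.06 (adjusted p = 0.00398). After tunicamycin Amacr was 1.97-fold higher in lsPERK than in WT liver (limma adjusted p = 0.00103). In the fit with Xist status Amacr was lower by 0.40 on Xist-high arrays (SE 0.10, limma adjusted p = 0.0245), with overlapping ranges. The gap was widest in treated WT liver, where replicate 2 read 11.01 and the Xist-low arrays averaged 12.00. In treated lsPERK liver the Xist-high and Xist-low means were 12.66 and 12.80.

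Acox2, the peroxisomal oxidase of the bile acid side chain, was the enzyme that rose. WT controls read 12.31, 12.27 and 12.22 and WT tunicamycin arrays 13.03, 12.71, 12.98 and 12.90. The lsPERK controls read 12.15, 11.85 and 12.45 and lsPERK tunicamycin arrays 12.93, 12.92, 12.53 and 12.63. Treated arrays lay above the controls of the same genotype, by a narrow margin in lsPERK liver. The WT response was 0.64 (SE 0.13, limma adjusted p = 0.00145), a 1.55-fold rise, and the lsPERK response 0.61 (adjusted p = 0.0074), a 1.52-fold rise. The responses differed by −0.03 (SE 0.19, limma adjusted p = 0.939), with 95% confidence limits of −0.44 and 0.38. In lsPERK liver the rise was 0.93 on Xist-high arrays (adjusted p = 0.00915) and 0.13 on Xist-low arrays (adjusted p = 0.544), and whether those 2 values differ was not tested. The WT rise was 0.72 on Xist-low arrays (adjusted p = 0.000123) and 0.40 on Xist-high arrays (adjusted p = 0.136), where the call was lost. Its difference of responses took opposite signs, −0.59 on Xist-low arrays (limma adjusted p = 0.0247), with 1 array in lsPERK control, and 0.53 on Xist-high arrays (adjusted p = 0.193), with 1 array in each WT group. After tunicamycin the genotypes differed by −0.39 on Xist-low arrays (limma adjusted p = 0.00589) and by 0.22 on Xist-high arrays (adjusted p = 0.379).

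Slc27a5, the synthetase that activates returning bile acids, had small changes and a small spread. WT controls read 13.60, 13.64 and 13.62 and WT tunicamycin arrays 13.17, 13.12, 13.29 and 13.27. The lsPERK controls read 13.52, 13.55 and 13.61 and lsPERK tunicamycin arrays 13.26, 13.31, 13.42 and 13.33. Treated and control arrays did not overlap in either genotype. Its WT response was −0.41 (SE 0.06, limma adjusted p = 7.05e-05), a 1.33-fold fall, and the lsPERK response −0.23 (SE 0.06, adjusted p = 0.0163), a 1.17-fold fall. Both depend on the scaling of the arrays. With the intensities as deposited they were −0.25 (adjusted p = 0.0677) and −0.24 (adjusted p = 0.213), and with median centring the lsPERK response was −0.12 (adjusted p = 0.626). The lsPERK call was also lost without lsPERK control replicate 3 (−0.20, adjusted p = 0.0574), on Xist-low arrays alone (−0.23, adjusted p = 0.189) and on Xist-high arrays alone (−0.25, adjusted p = 0.0853). Between genotypes the responses differed by 0.18 (limma adjusted p = 0.165).

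Baat, the enzyme that conjugates bile acids with taurine or glycine, was not called in any of the 5 comparisons. WT controls read 11.46, 11.90 and 11.54 and WT tunicamycin arrays 11.37, 11.48, 11.53 and 11.44. The lsPERK controls read 11.67, 11.58 and 11.51 and lsPERK tunicamycin arrays 11.50, 11.26, 12.06 and 12.02. The lsPERK tunicamycin arrays fell into 2 levels, the lower pair being the Xist-high arrays. The WT response was −0.18 (SE 0.17, limma adjusted p = 0.428) and the lsPERK response 0.13 (adjusted p = 0.694). After tunicamycin the difference between genotypes was 0.25 (adjusted p = 0.244), and it was 0.59 on Xist-low arrays (SE 0.12, limma adjusted p = 0.00583) and −0.10 on Xist-high arrays (SE 0.16, adjusted p = 0.715). Responses differed likewise, by 0.80 on Xist-low arrays (limma adjusted p = 0.0355) and −0.26 on Xist-high arrays (adjusted p = 0.519). Without lsPERK tunicamycin replicate 2 the difference between genotypes after tunicamycin was 0.40 (limma adjusted p = 0.0424). The difference of responses was called in 0 of the 14 fits that left out 1 array. The further probe set of Baat was not called in any comparison.

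**Figure D3:**
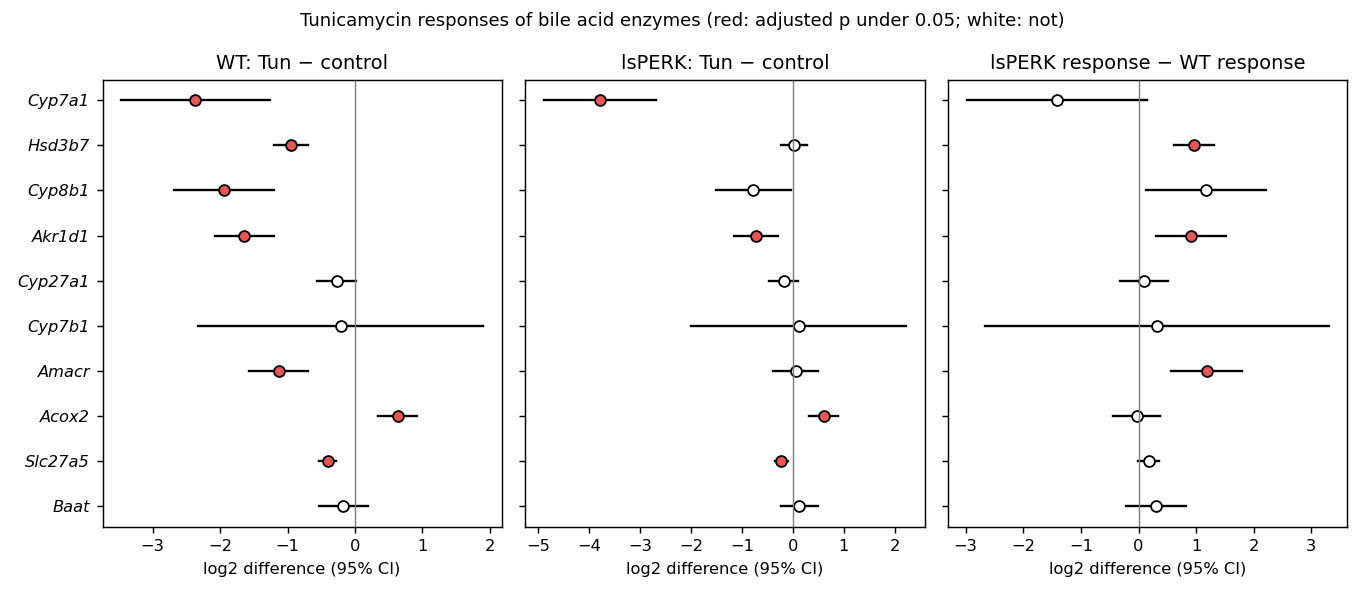
Log2 difference of each enzyme with its 95% confidence interval, in WT liver, in lsPERK liver, and as the lsPERK response minus the WT response. Red points have a limma adjusted p under 0.05 and white points do not. Each panel has its own axis. Hsd3b7, Akr1d1 and Amacr are the red points of the third panel, at 0.97, 0.91 and 1.19.

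Between the untreated genotypes no enzyme was called. The differences ranged from −0.70 for Cyp8b1 to −0.00 for Cyp7a1, with a median of −0.09 beside −0.02 over all genes. Hsd3b7, with the smallest p-value of these enzymes in limma, differed by −0.30 (limma adjusted p = 0.992). Over all genes limma called 0 in this comparison, with 512 at an unadjusted p under 0.05.

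For each enzyme called in any comparison, the 3 genes whose levels followed it most closely over the 14 arrays were found by Pearson's r on log2 values. These correlations mix treatment, genotype and Xist status and are given as a description. Amacr was followed by S100a1 (r = 0.98), Tle5 (0.97) and Kmo (0.97), Akr1d1 by Agpat2 (0.98), Myorg (0.98) and Clybl (0.97), and Hsd3b7 by Ifngr2 (0.97), Pfn2 (0.94) and Stk16 (0.94). Slc27a5 was followed by Pcmtd2 (0.98), Dipk1a (0.97) and Gpr155 (0.97), and Acox2 by Qpctl (0.94), Itpa (0.93) and Ube2f (0.93). Cyp7a1 was followed by Ces1c, Tmem238 and Siva1 (each 0.93), and Cyp8b1 by Gna12 (0.91), Bak1 (0.89) and Tlr12 (0.89). No other member of the 10 was among these nearest genes.

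Of 16 other bile acid enzymes 13 were measured, and 6 of them fell and 0 rose in WT liver, while 0 were called in lsPERK liver. Over all genes 26% were called lower and 20.7% higher in WT liver, and 7.27% lower and 8.42% higher in lsPERK liver. The median WT response of the list was −0.31, beside −0.13 over all genes. Slc27a2, the very-long-chain synthetase that activates bile acid precursors, fell by 0.31 in WT liver (SE 0.05, limma adjusted p = 0.000212) and its lsPERK response was 0.03, a difference of responses of 0.34 (adjusted p = 0.00488). Hsd17b4, the peroxisomal bifunctional protein that follows Acox2, fell by 0.35 in WT liver (limma adjusted p = 0.0145), with a difference of responses of 0.54 (adjusted p = 0.0224). Acot8, a peroxisomal thioesterase, fell by 0.71 in WT liver (limma adjusted p = 0.00394), with a difference of responses of 0.91 (adjusted p = 0.0192). Abcd3, which imports bile acid precursors into peroxisomes, fell by 0.46 in WT liver (limma adjusted p = 0.000647) and its difference of responses of 0.28 was not called (adjusted p = 0.129). With the unscaled deposited intensities, under which the typical gene shifts up (a median of 0.30 in WT liver), 1 of the 13 was called higher and 0 lower in WT liver, and with median centring 0 were higher and 5 lower. As deposited, 0 of the 13 were called in the difference of responses, so the calls of Slc27a2, Hsd17b4 and Acot8 were lost there, and with median centring 3 were called, all positive.

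Among 24 regulators of bile acid synthesis 23 were measured, and 4 rose and 11 fell in WT liver, 2 rose and 6 fell in lsPERK liver, and the difference of responses was positive for 7 and negative for 5. Over all genes 20.7% rose and 26% fell in WT liver, 8.42% rose and 7.27% fell in lsPERK liver, and the difference of responses was positive for 10.2% and negative for 9.67%. In the unscaled intensities the balance of the last count turned, to 4 positive and 7 negative, and with median centring it was 6 and 4. Nr0b2 (SHP), the nuclear receptor that represses Cyp7a1 and Cyp8b1, moved in opposite directions in the 2 genotypes. It averaged 10.43 ± 0.49 (SD, n = 3) in control and 7.09 ± 0.87 (n = 4) in treated WT liver, against 9.18 ± 0.55 (n = 3) and 10.83 ± 0.12 (n = 4) in lsPERK liver. Its WT response was −3.33 (SE 0.39, limma adjusted p = 1.04e-05) and its lsPERK response 1.65 (SE 0.39, adjusted p = 0.0108), a difference of responses of 4.98 (SE 0.55, adjusted p = 7.07e-05). Cyp7a1 fell in both genotypes beside these opposite changes. Nr1h4 (FXR), the bile acid receptor that induces Nr0b2, had a WT response of 0.08 (limma adjusted p = 0.672), fell by 0.75 in lsPERK liver (adjusted p = 0.00267) and had a difference of responses of −0.83 (adjusted p = 0.0105).

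Nr5a2 (LRH-1), an activator of Cyp7a1 and Cyp8b1, rose by 0.45 in WT liver (limma adjusted p = 0.0296), had an lsPERK response of −0.22 (adjusted p = 0.408), and a difference of responses of −0.67 (adjusted p = 0.0484). Hnf4a, the hepatocyte nuclear receptor that drives many of these enzymes, was not called in either genotype, with responses of 0.30 (limma adjusted p = 0.0745) and 0.18 (adjusted p = 0.404). Klb and Fgfr4, the receptor pair for the gut hormone FGF15, were not called in either response. After tunicamycin Klb differed by −0.54, lsPERK minus WT (limma adjusted p = 0.0377). Cebpa, a C/EBP factor of hepatocytes, fell by 1.01 in WT (limma adjusted p = 0.000248) and by 1.23 in lsPERK liver (adjusted p = 0.000245), with a difference of responses of −0.22 (adjusted p = 0.589).

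Nr1h3, the oxysterol receptor LXRα, fell by 0.68 in WT liver (limma adjusted p = 0.000322), with a difference of responses of 0.48 that was not called (adjusted p = 0.0582). Nr1i3 (CAR), a xenobiotic receptor, fell by 1.38 in WT liver (limma adjusted p = 1.51e-06), and its difference of responses was 1.18 (adjusted p = 0.00072). Foxa2, a forkhead factor of bile acid genes, fell by 1.78 in WT liver (limma adjusted p = 6.29e-06) and by 0.71 in lsPERK liver (adjusted p = 0.0246). Nfil3, the repressor that binds D-box sites, rose by 2.64 in WT liver (limma adjusted p = 5.42e-06), had an lsPERK response of −0.62 (adjusted p = 0.172), and a difference of responses of −3.26 (adjusted p = 0.000159). Egr1, an immediate-early factor, had a WT response of 0.41 (limma adjusted p = 0.293) and rose by 4.08 in lsPERK liver (adjusted p = 1.08e-06). With the intensities as deposited 9 of the 23 regulators rose and 8 fell in WT liver, and the named changes kept their direction.

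**Figure D4:**
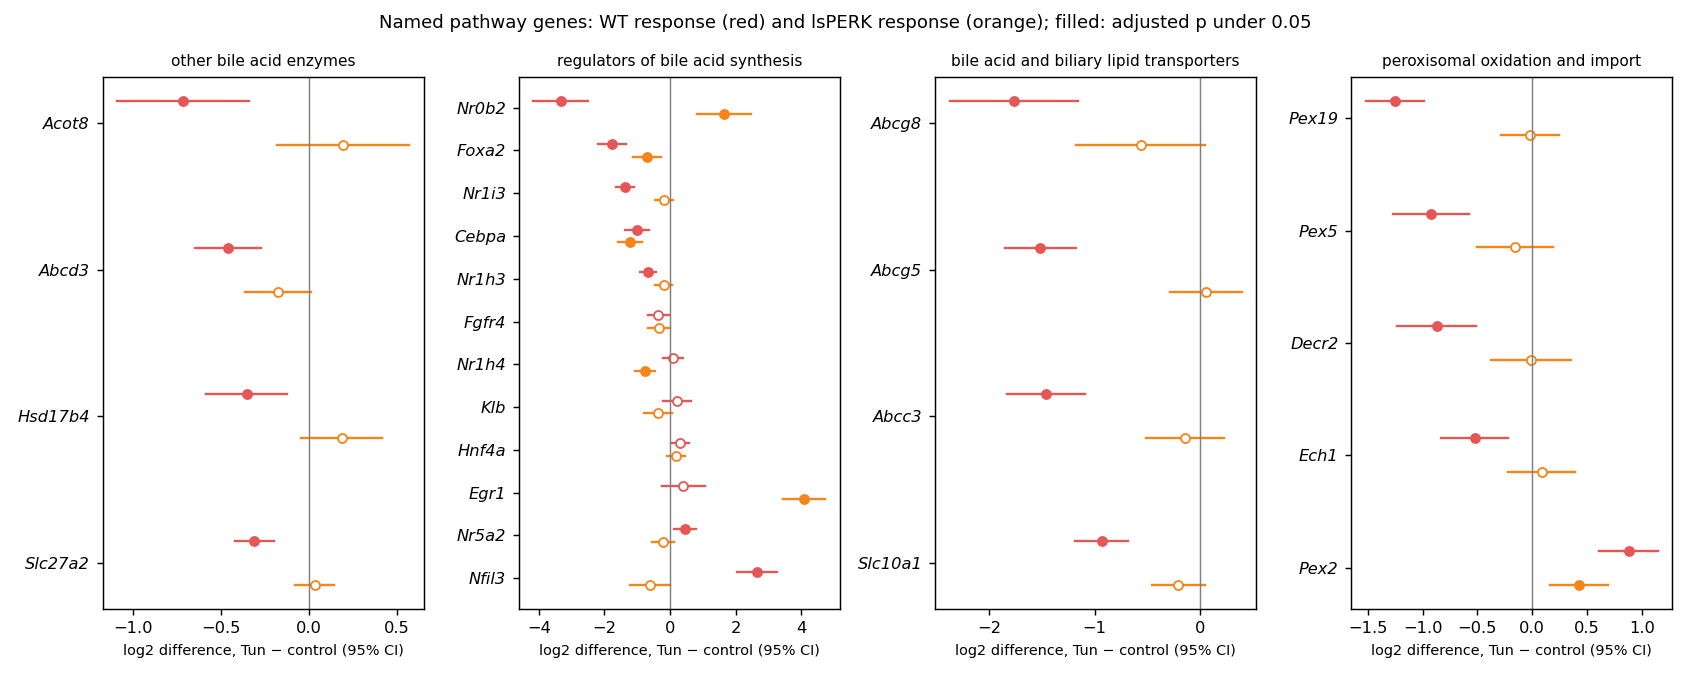
Log2 difference, tunicamycin minus control, with 95% confidence interval for the named genes of 4 pathway lists, WT in red and lsPERK in orange. Filled points have a limma adjusted p under 0.05. Each panel has its own axis. Nr0b2 lies at −3.33 in WT and 1.65 in lsPERK liver.

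Of 14 transporters of bile acids and biliary lipids 13 were measured, and 4 fell and 1, Abcb4, rose in WT liver, 0 were called in lsPERK liver, and the difference of responses was positive for 4 and negative for 0. Over all genes 26% fell and 20.7% rose in WT liver, and 7.27% fell and 8.42% rose in lsPERK liver. The difference of responses was positive for 10.2% of all genes and negative for 9.67%. Slc10a1, the uptake carrier NTCP, averaged 13.60 in control and 12.67 in treated WT liver and 13.73 and 13.52 in lsPERK liver, with a WT response of −0.93 (limma adjusted p = 1.94e-05) and a difference of responses of 0.72 (adjusted p = 0.00772). Abcc3, an export pump of the sinusoidal side, fell by 1.46 in WT liver, with a difference of responses of 1.32 (limma adjusted p = 0.00227). Abcg5 and Abcg8, the partner subunits of the biliary sterol pump, fell by 1.51 and 1.77 in WT liver, with differences of responses of 1.57 (limma adjusted p = 0.000384) and 1.20 (adjusted p = 0.0493). Abcb4, the phospholipid flippase of the bile canaliculus, is named after its values were seen, and rose by 0.36 (adjusted p = 0.0454). With the intensities as deposited 4 fell and 1 rose in WT liver, and the difference of responses was positive for 1 of the 13.

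Of 24 genes of peroxisomal oxidation and import 20 were measured, and 9 fell and 1 rose in WT liver, while 0 fell and 1 rose in lsPERK liver. Over all genes 26% fell and 20.7% rose in WT liver, and 7.27% fell and 8.42% rose in lsPERK liver. Pex19, which inserts peroxisomal membrane proteins, fell by 1.25 in WT liver (limma adjusted p = 2.61e-06), with a difference of responses of 1.23 (adjusted p = 0.000412). Pex5, the import receptor for matrix enzymes, fell by 0.92 in WT liver (limma adjusted p = 0.000346), with a difference of responses of 0.77 (adjusted p = 0.0307). Decr2 and Ech1, auxiliary enzymes of fatty acid oxidation, fell by 0.87 and 0.53 in WT liver, with differences of responses of 0.86 (limma adjusted p = 0.0216) and 0.61 (adjusted p = 0.0479). Pex2, a peroxisomal ubiquitin ligase, rose by 0.88 in WT (limma adjusted p = 5.8e-05) and by 0.43 in lsPERK liver (adjusted p = 0.0321). With the intensities as deposited 3 of the 20 rose and 1 fell in WT liver. Under that scaling the difference of responses was positive for 0 of the 20 and negative for 1, so those of Pex19, Pex5, Decr2 and Ech1 were not called. With median centring it was positive for 4, and that of Pex5 was not called (0.63, adjusted p = 0.122). Of 5 electron donors of P450 enzymes 3 were measured. Cyb5r3 and Fdx1 fell in WT liver by 0.74 (limma adjusted p = 0.0182) and 0.55 (adjusted p = 0.0126), and neither was called with the intensities as deposited.

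In whole liver, fewer cells of a type and less RNA per cell cannot be told apart. Of 10 hepatocyte markers 9 were measured, and 0 were called in any of the 5 comparisons. Their summed intensity lay between 156001 and 161306 in WT controls and between 154936 and 158788 in treated WT liver. In lsPERK liver it lay between 152484 and 163027 in controls and between 153800 and 159233 after treatment. Apart from Hnf4a, the group means of these markers lay between 13.84 and 14.55, a range of very bright signals. Whether probe sets this bright can still show a change was not tested. Some markers of other liver cells fell in WT liver, where 26% of all genes were called lower. Kupffer cells had 1 of 8 (Cd5l, −1.10), endothelium 2 of 8 (Stab2 and Kdr) and stellate cells 3 of 8 (Reln, Colec11 and Col3a1). These counts were 0, 0 and 0 with the intensities as deposited, and 1, 0 and 0 with median centring. As deposited, 1 hepatocyte marker and 1 cholangiocyte marker were called higher in WT liver. All 8 Kupffer cell markers had lower means after tunicamycin in both genotypes. Their median difference was −0.70 in WT and −0.52 in lsPERK liver, beside −0.13 and −0.02 over all genes. The summed intensity of the 8 Kupffer cell markers was 8481 to 23947 in WT controls, 4915 to 15977 after treatment, and 7799 to 23107 and 8269 to 12583 in the lsPERK groups. For endothelium it was 5820 to 9177, 5455 to 8054, 7283 to 9110 and 5761 to 8196 in the same order, and for stellate cells 12274 to 17432, 9948 to 14157, 13503 to 15142 and 13020 to 15958. Sox9, 1 of 6 measured cholangiocyte markers, rose by 1.44 in lsPERK liver, where 8.42% of all genes were called higher. Of 6 leukocyte markers 0 were called in any comparison. Like the Kupffer cell markers, all 6 had lower means after tunicamycin in both genotypes, with median differences of −0.83 in WT and −0.90 in lsPERK liver. Cholangiocyte and leukocyte markers summed to 257 to 468 and 266 to 1517 over the groups. The means of Sox9, Krt19 and Cldn7 among cholangiocyte markers, and of Cd3e, Cd3g, Nkg7, S100a8 and S100a9 among leukocyte markers, lay under the filter threshold in at least 1 group. The part of these changes in the enzymes' results was not tested.

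Hepatocytes differ along the lobule, and Cyp7a1 is known as an enzyme of the pericentral zone. Of 11 measured pericentral genes 6 fell and 0 rose in WT liver and 1, Slc1a2, fell in lsPERK liver. Of 9 measured periportal genes 4 fell and 0 rose in WT liver and 1, Ass1, fell in lsPERK liver. In treated lsPERK liver the mean of Ass1, 5.83, was near the filter threshold of 5.37, while its mean in lsPERK control was 7.09. Over all genes 26% fell in WT and 7.27% in lsPERK liver. With the intensities as deposited 2 of the 11 pericentral and 2 of the 9 periportal genes fell in WT liver, and with median centring 5 and 4. Genes of both zones fell in WT liver, among them Gulo and Lect2 (pericentral, −0.62 and −1.06) and Hal and Aldh1b1 (periportal, −2.01 and −2.51). Their part in the enzymes' results was not tested. RNA integrity can be read from the 3′ to 5′ signal ratio of the β-actin control probe sets. Its log2 value averaged 1.09 ± 0.15 (SD, n = 3) in control and 0.84 ± 0.25 (n = 4) in treated WT liver, against 0.87 ± 0.25 (n = 3) and 0.68 ± 0.10 (n = 4) in lsPERK liver. The same log2 ratio of the Gapdh control probe sets lay between −0.55 and −0.37 over the arrays. With the mean of the β-actin and Gapdh ratios as a covariate, 7 enzymes were called in WT liver and 4 in lsPERK liver. For the difference of responses 3 were called, and all of these counts were as without the covariate.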

How the data were processed

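The authors deposited 1 linear intensity per probe set and array; these are MAS5 and GCOS signals, as the submitters' processing notes name both programs, with versions and scaling target not given in the sources used here. Genes were named from the platform annotation: of 45101 probe sets, 34945 carried a single gene, 932 carried several, and 9160 were left without a name. The 64 control probe sets were removed, log2 intensities were quantile normalized, and probe sets were kept where at least 3 arrays were above the median of all values (log2 5.37, intensity 41.5). Each gene was read by its kept probe set of highest mean, which gave 12085 genes. Array medians ran from 34.4 to 53.4 before normalization. Arrays have no read depth, and their number limits the precision. Same-group arrays correlated at r = 0.942 to 0.980, and no 2 files held the same values.

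limma 3.58.1 (R 4.3.3) estimated 4 group means (trend in mean expression, 10 residual degrees of freedom) with 5 two-sided contrasts. All adjusted p-values come from limma. The procedure was tested on simulated data. Alternatives covered scaling, filters, floors, variance models, probe set rules, covariates, a replicate block and each array left out. Enzymes, lists, tests and rules were chosen with earlier results of these data known. Named beyond the 10 enzymes are, per list, the 4 genes of smallest p in the WT response and in the difference of responses, and 8 preset regulators. Also named are the 3 genes of closest pattern per called enzyme, and Eif2ak3, Ddit3, Hspa5, Xist and Eif2s3y. Figures were drawn with matplotlib 3.10.9 under Python 3.11.15.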

Additional observations from a re-analysis of the deposited data

Results flagged for a closer look

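In the 2 groups of 4 arrays, an array was looked at again where its gap to the nearest other array, divided by the range of its group, was above the 95% critical value of Dixon's test for 4 values. WT tunicamycin replicate 2, a Xist-high array, was the lowest of its group for both genes that met this. For Cyp7b1 the gap was 0.997 of the range, with 9.91 on that array and 13.56 to 13.57 on the other 3. For Amacr it was 0.839 of the range, with 11.01 on that array and 11.92 to 12.10 on the others. Chance alone passes this limit in about 5% of groups. Groups of 3 arrays were not examined this way.

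The responses of 3 enzymes differed between genotypes by the limma test of the difference itself, lsPERK minus WT. The difference was 0.91 for Akr1d1 (adjusted p = 0.0376), 1.19 for Amacr (adjusted p = 0.0106) and 0.97 for Hsd3b7 (adjusted p = 0.00139). The Akr1d1 call was lost under 14 of 30 alternatives, while Amacr kept it under all 30 and Hsd3b7 under 29. Amacr and Hsd3b7 had no further kept probe set, so not all of these alternatives could move their values.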

How the results depend on the processing

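Each of the 10 enzymes was refitted in 5 comparisons under 29 other settings and 2 chosen after seeing the data (Xist-high arrays alone, and the Xist covariate with the replicate block). Of 1540 values, 1394 kept direction and side of the threshold, 48 lost the call, 11 gained it, 1 reversed, and 86 changed sign with neither value called. The 1540 include refits that could not move a value, such as another choice of probe set for enzymes without a further kept one. Fitting only the groups compared gives no difference of responses, which needs all 4. The count of enzymes called in the lsPERK response, 4, was 2 with intensities as deposited, with median centring, on Xist-low arrays alone and on Xist-high arrays alone, and 2 to 4 with each array left out. The Cyp7b1 tunicamycin comparison reversed from −0.26 to 1.15 on Xist-high arrays alone. The counts with each array left out were 7 in the WT response, 0 between controls, 3 to 4 between tunicamycin groups and 2 to 4 in the difference of responses. On Xist-high or Xist-low arrays alone some groups hold 1 array, whose spread is assumed to be that of the other groups.

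Scaling moves the whole distribution. In the WT response 44.2% of called genes were higher in the reported fit, 83.7% with intensities as deposited and 60.7% with median centring. For the difference of responses these shares were 51.3%, 6.79% and 35.6%. For the lsPERK response they were 53.7%, 58.3% and 71.7%, and between tunicamycin groups 52.4%, 26.5% and 37.3%. The labels give no shared animal, litter or day for a replicate number, and same-numbered arrays deviated together (r over 0.1) in 13 of 19 pairs, with r from −0.37 to 0.42. With the replicate block 7, 3, 0, 3 and 2 enzymes were called in the WT response, the lsPERK response, the control comparison, the tunicamycin comparison and the difference of responses. The block ended the call of Akr1d1 in the lsPERK response (adjusted p = 0.0631) and in the difference of responses (0.0605), and of Cyp7a1 between tunicamycin groups (0.0551). The cause of these losses was not tested.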
